A study of Mus musculus with 2 samples.

Results

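Dendritic cells of the mouse aortic adventitia that transcribed *Cd209a* were described in single-cell transcriptomes of sorted CD45-positive cells. These cells were selected on measured unique molecular identifier (UMI) counts, so the genes used for the choice are no finding. A member held at least 1 *Cd209a* UMI and at least 10 UMIs of the class II genes *H2-Aa*, *H2-Ab1*, *H2-Eb1* and *Cd74* together. It held at most 1 UMI of *C1qa*, *C1qb* and *C1qc*, none of *Xcr1* or *Clec9a*, at most 1 of *Fscn1* and *Ccr7*, and none of *Cd79a*, *Cd3d* or *Cd3e*. In all, 95 of 4504 filtered cell barcodes were members, 8 of 306 at steady state and 87 of 4198 under AngII.

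Both groups were *Rank*-Cre *Rosa26*-eYFP mice at 16 weeks of age, in which cells with a history of *Rank* (*Tnfrsf11a*) promoter activity carry the reporter *Yfp*. The reporter follows every cell that ever used that promoter and its descendants, and is not specific to one lineage. The steady state library was pooled from 3 untreated animals and the AngII library from 2 animals given angiotensin II at 1.8 µg/kg/min for 10 days. Each condition was 1 library, so animals within a pool could not be separated, no statistical test of condition was possible, and every interval below (95%, exact) covers counting error only.

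Conventional dendritic cells take up antigen, load peptides onto MHC molecules and present them to T cells. They depend on the growth factor receptor FLT3. Type-1 cells, marked by *Xcr1* and *Clec9a*, require IRF8 and BATF3 and are known for cross-presentation to CD8 T cells. Type-2 cells present mainly to CD4 T cells, commonly depend on IRF4, and share several C-type lectins and myeloid genes with monocyte-derived cells. *Cd209a* encodes a mouse homologue of the pathogen-binding lectin DC-SIGN, and *Klrd1* encodes CD94, a lectin-like receptor best known from natural killer cells.

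The depth of the libraries differed before any gene was compared. The filtered barcodes had a median of 9105 UMIs at steady state and 1092 under AngII, and the libraries shared 0 barcodes. The 8 steady state members held 12210 to 34253 UMIs (median 20136). The 87 AngII members held 511 to 31083 (median 1202) and fell on both sides of an empty stretch of depth: 54 had 511 to 3069 UMIs and 33 had 6216 to 31083. The line at 4000 UMIs that separates them was drawn after the depths were seen. The 33 deep cells supplied 91.4% of the UMIs of the AngII members, so summed levels under AngII describe mainly these cells. The pools also differed in sex: *Xist* was found in 51 of 87 AngII members and Y-linked transcripts in 0, against 1 and 6 of 8 steady state members. Sex and condition therefore cannot be told apart in any comparison of the 2 libraries, and depth differed with both.

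**Figure D1:**
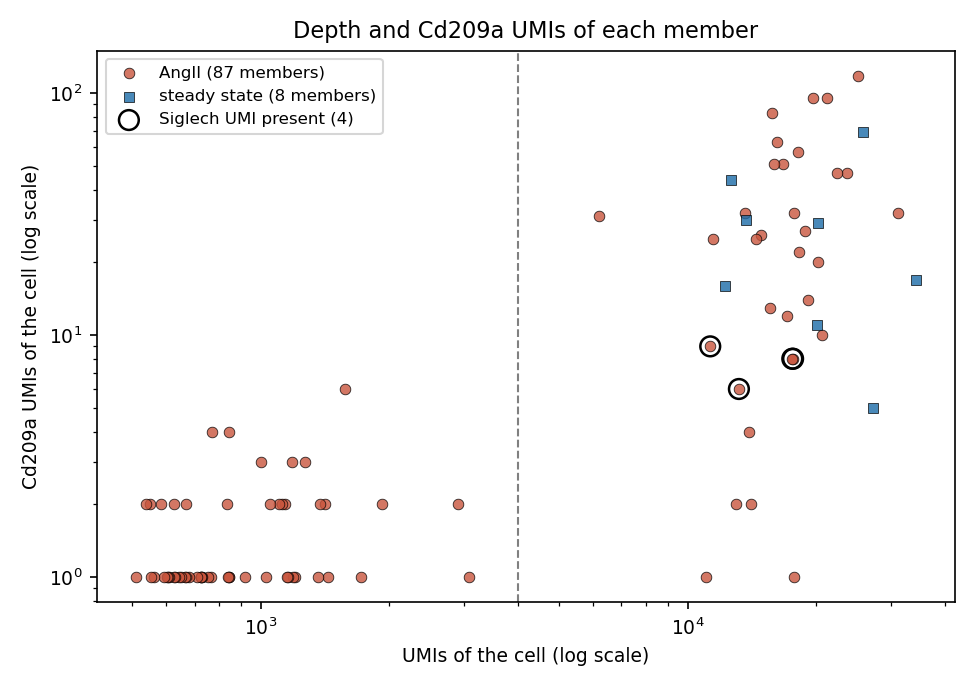
UMIs of each member (x axis, log scale) against its *Cd209a* UMIs (y axis, log scale) in the 8 steady state and 87 AngII members, with the 4000-UMI line dashed and the 4 members with a *Siglech* UMI ringed (a pair of rings overlaps). All steady state members lie right of the line, whereas 54 AngII members lie left of it, mostly at 1 *Cd209a* UMI.

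Members made up 2.61% (1.14 to 5.09) of the filtered steady state barcodes and 2.07% (1.66 to 2.55) of those under AngII. These intervals overlapped. Among barcodes over 4000 UMIs the shares were 2.85% (1.24 to 5.53) and 3.40% (2.35 to 4.74), and when every cell was thinned to 1000 UMIs before selection they were 3.63% and 2.53% of the 303 and 2288 barcodes of that depth. The order of the 2 libraries thus depended on how depth was treated. Below 4000 UMIs the share was 1.67% (1.26 to 2.18, 54 of 3226) under AngII and 0 of 25 at steady state.

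The *Cd209a* gene (ENSMUSG00000031494.7) lies on the minus strand of chromosome 8 at 3743397 to 3748984 (GRCm38). Steady state members held 5 to 69 of its UMIs, whereas 36 AngII members held 1 and 24 held 10 or more, up to 118. Class II UMIs ranged from 28 to 2511 per cell at steady state (median 954.5) and from 13 to 2103 under AngII (median 62). No member sat at the class II threshold, with 0 cells at 10 to 12 UMIs and 0 otherwise eligible cells at 7 to 9. The C1q threshold was more crowded: 4 steady state and 34 AngII members held 1 C1q UMI, and 3 and 27 otherwise eligible cells held 2 and stayed out. Of all filtered barcodes with *Cd209a*, 38 of 49 at steady state and 180 of 298 under AngII missed the C1q limit. High *Cd209a* was therefore not exclusive to members: 27 of the 53 AngII barcodes with at least 10 *Cd209a* UMIs were over that limit.

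Free RNA can place a *Cd209a* UMI in a cell that does not transcribe the gene. Lymphocytes, defined by at least 2 UMIs of *Cd79a*, *Cd3d* and *Cd3e*, carried *Cd209a* in 1.72% of 232 cells under AngII (median 3846 UMIs) and in 2.27% of 88 at steady state (median 6756.5 UMIs). Among AngII cells that met every other step of the choice, *Cd209a* was found in 11.8% below 4000 UMIs and in 31.7% above. Both shares exceeded the lymphocyte share, but 34 of the 54 shallow members rested on 1 *Cd209a* UMI. Other myeloid cells carried more *Cd209a* than lymphocytes. Macrophages with at least 5 C1q UMIs held it in 4.73% of 1163 cells below 4000 UMIs and 10.9% of 466 above. Cells with at least 2 UMIs of *Xcr1* and *Clec9a* held it in 5% of 20 and 2.5% of 40.

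*Flt3* and *Klrd1*, which the choice did not use but which belong to the markers of the label, were looked at next. *Flt3* stood at 54.2 UMIs per 1000000 UMIs of the group (CPM; 24.8 to 103) in steady state members and 148 CPM (119 to 181) in AngII members. Under AngII it was 9.17-fold (6.97 to 12) above the level in macrophages with at least 5 C1q UMIs. At least 1 *Flt3* UMI was seen in 3 of 8 and 31 of 87 members, and in 25 of the 33 deep AngII members. *Klrd1* stood at 145 CPM (92.6 to 215) and 318 CPM (275 to 366), was seen in 5 of 8 and 35 of 87 members, and in 28 of the 33 deep cells. Thinned to 2000 UMIs per cell, the deep AngII members kept a *Klrd1* UMI in 13 and a *Flt3* UMI in 8 of 33 cells. Each gene was thus seen in most deep AngII cells, while most shallow cells showed neither. This contrast moves with depth. Thinned to 500 UMIs per cell, *Flt3* was found in 3 of 54 shallow and 1 of 33 deep cells, and *Klrd1* in 4 of 54 and 3 of 33. *Flt3* cannot tell type-2 from type-1 cells, where its level was higher (below), and the members rich in *Siglech* described below held both genes. At steady state, where all 8 members were deep, the median cell held 0 *Flt3* UMIs and 1 cell held 6. The *Flt3* level there thus rested on few cells.

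A few members went against the label. Under AngII, 2 deep members held 66 and 44 UMIs of *Siglech*, the receptor that marks plasmacytoid dendritic cells. The same cells held 44 and 43 UMIs of *Tcf4*, the transcription factor that specifies them, 35 and 47 of *Irf8*, and 0 and 0 of *S100a4*. Of the other two members with *Siglech*, 1 held 5 of its UMIs with 13 of *Klrd1* and 442 of the class II genes, and 1 held a single UMI. Summed plasmacytoid markers (8 genes) ranged from 0 to 20879 CPM over AngII members, with a median cell of 220 CPM. At steady state 1 member had the fewest class II UMIs, 28, together with 434 *Lyz2*, 17 *Plac8*, 14 *Ly6c2* and 14 *Apoe* UMIs, genes of monocytes and macrophages. Such genes were also high in some deep AngII members. There, 1 cell held 176 *Lyz2*, 15 *Plac8* and 9 *Csf1r* UMIs beside 2 of *Cd209a* and 4 of *Flt3*. Another held 60 *Lyz2*, 34 *Apoe* and 11 *Csf1r* UMIs beside 1 of *Cd209a* and 0 of *Flt3*. Other lineages were rare in sums: the 15 T and NK markers reached 6.02 CPM at steady state and 51.9 CPM under AngII, the 9 B cell markers 60.2 and 130 CPM, and the 10 neutrophil markers 18.1 and 196 CPM. *Cd3d*, *Cd3e* and *Cd79a* were at 0 by the choice, and *Nkg7*, *Ncr1* and *Pax5* were also at 0 in both libraries.

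UMIs of the reporter were rare in members. *Yfp* was found in 0 of 8 steady state members, which allows a share of cells with a UMI of up to 36.9%, and in 1 of 87 AngII members (1.15%, 0.0291 to 6.24), as 1 UMI. That UMI lay in the deep member with 176 *Lyz2* UMIs. At these depths a missing *Yfp* UMI does not show that a cell lacks the reporter. In lymphocytes it was found in 2.27% at steady state and 2.16% under AngII, so the member share under AngII was no higher than in cells outside the myeloid lineage. The C1q macrophages carried *Yfp* in 79.5% of 132 cells at steady state and 18.7% of 1629 under AngII, where they summed to 97.6 CPM against 1.62 CPM in members. The type-1 dendritic cells (at least 2 UMIs of *Xcr1* and *Clec9a*) held it in 0 of 9 and 0 of 60 cells. Shares of cells also move with depth, which had a median of 1202 UMIs in AngII members and 1507 in AngII macrophages, and the summed CPM under AngII gave the same order.

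Several genes outside the choice set AngII members apart from the other dendritic cells and macrophages of the same library. Against the 60 type-1 cells, 381 of 4011 genes (9.50%) with at least 50 UMIs over both groups were at least 2-fold higher in members and 320 (7.98%) at least 2-fold lower. Of 14 C-type lectin genes compared, 12 were past 2-fold higher and 1, *Klrk1*, lower, with a median log2 ratio of 2.79 against 0.05 for all genes (20 CPM added to both sides in every median). *Clec10a*, a galactose-type lectin on chromosome 11, stood at 801 CPM in members and 11.4 CPM in type-1 cells. *Mgl2*, which encodes CD301b and lies close by on the same chromosome, stood at 811 and 8.30 CPM. *S100a4*, a calcium-binding protein, stood at 2474 and 33.2 CPM, and the membrane protein gene *Tmem176a* at 856 and 8.30 CPM. *Sirpa*, the inhibitory receptor used to recognise type-2 cells, stood at 216 and 8.30 CPM, and *Csf1r*, the receptor for M-CSF, at 169 and 11.4 CPM. *Klrd1* was 7.47-fold (5.32 to 10.7) higher in members, whereas *Flt3* was 0.745 times (0.574 to 0.961) the type-1 level.

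Transcription factors divided between both types. *Irf4* stood at 51.9 CPM in members and 2.07 CPM in type-1 cells. It was seen in 14 of 87 members, 1 of which held 15 of its UMIs, and it missed the minimum of 50 UMIs for the counts below. *Irf8* stood at 180 and 1821 CPM, and at 50.3 CPM in members once the 4 cells with *Siglech* were left out. *Klf4*, *Relb*, *Rel*, *Runx3*, *Zeb2* and *Tcf4* were the 6 of 15 factors past 2-fold higher in members, and *Irf8*, *Zbtb46*, *Batf3* and *Id2* the 4 past 2-fold lower. Of the 4 cells with *Siglech*, 2 held 44 and 43 *Tcf4* UMIs. Without the 4 cells *Tcf4* stood at 120 CPM in members. *Zbtb46*, the factor shared by conventional dendritic cells, was present at 32.4 CPM in members, 85.0 CPM in type-1 cells and 6.23 CPM in C1q macrophages. All 9 type-1 markers outside the choice were lower in members, at a median log2 ratio of -2.95.

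The presentation machinery differed by branch. None of 9 class I pathway genes was past 2-fold higher in members and 4 were lower, namely the peptide transporter genes *Tap1* and *Tap2* and the immunoproteasome subunits *Psmb8* and *Psmb9*. Of 13 class II loading genes, 5 were higher (*H2-DMb2*, *Ctss*, *Ctsh*, *Lgmn* and *Ifi30*) and 2 lower (*Cst3* and *Rab7b*). *H2-DMb2*, part of the peptide exchange factor H2-M, stood at 289 CPM in members and 96.4 CPM in type-1 cells. *Cst3*, an inhibitor of lysosomal cathepsins, stood at 3401 and 28376 CPM. Of 15 DNA replication genes, 0 were higher and 12 lower in members (median log2 ratio -1.90), while 9 of 20 AP-1 and early response genes were higher and 0 lower. Early response genes can be induced during tissue digestion, and that contribution was not tested.

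Against the 1629 C1q macrophages, 429 of 9400 genes (4.56%) were at least 2-fold higher in members and 1755 (18.7%) at least 2-fold lower. Of 12 type-2 markers, 10 were higher and 0 lower (median log2 ratio 1.84 against -0.09 for all genes). This list was chosen with earlier results of these data known and holds *Flt3* and *Klrd1* from the label, so the count is a description and no check of the name. *Klrd1* was 25.5-fold (20.1 to 32.5), *Napsa*, an aspartic protease, 8.50-fold (7.71 to 9.36), and *Dpp4*, which encodes CD26, 8.01-fold (6.11 to 10.4) above the macrophage level. Of 28 monocyte and macrophage genes, 2 were higher (*Plac8* and *S100a4*) and 20 lower. The lipoprotein *Apoe* stood at 238 CPM in members and 14044 CPM in macrophages. *Csf1r* was present in members at 0.233 times (0.190 to 0.283) the macrophage level. Of 16 chemokine genes 12 were lower in members and 1, *Ccl17*, which encodes a CCR4 ligand, was higher. *Ccl17* was seen in 7 of 87 AngII members and 1 cell held 68 of its UMIs.

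Against all other cells of their library, the leading genes included receptors beyond the C-type lectins named above. *Klrb1b*, an inhibitory NK-type lectin, stood among the 12 leading genes in both libraries, at 127 CPM in members and 13.2 CPM in all other cells at steady state, and at 164 and 21.7 CPM under AngII. It was seen in 4 of 8 and 28 of 87 members. *Ddr1*, a collagen-binding receptor kinase, stood at 126 CPM in AngII members and 10.4 CPM in all other AngII cells, and was seen in 29 of 87 members. *Traf1*, an adaptor of TNF receptor signalling, stood at 399 and 90.3 CPM, and *Olfm1*, which encodes a secreted glycoprotein, at 683 and 207 CPM. *Olfm1* and *Gm2a*, the lysosomal activator of ganglioside breakdown, were found in every steady state member, *Gm2a* at 1681 CPM against 393 CPM in all other steady state cells. At steady state *Ccl17* led this ranking at 247 CPM, but from 2 of 8 members.

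**Figure D2:**
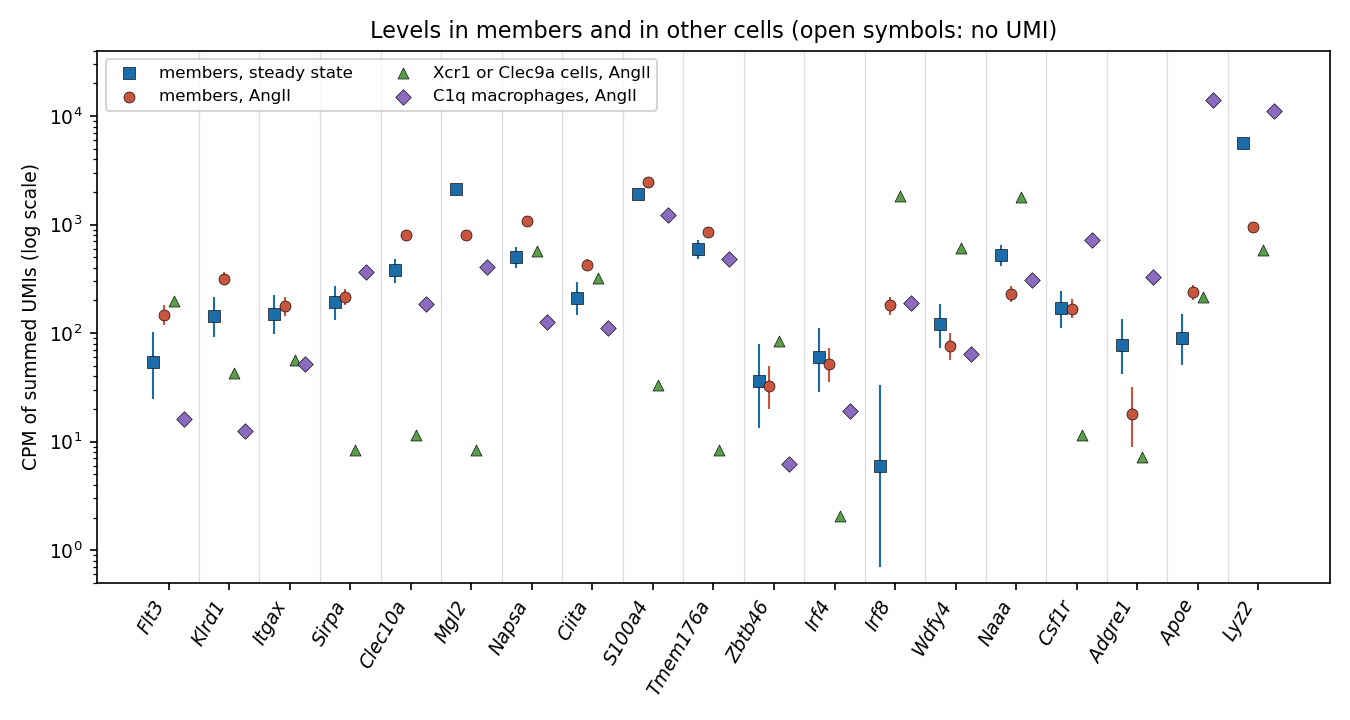
CPM (y axis, log scale) of 19 genes (x axis) in members at steady state and under AngII, and in type-1 dendritic cells and C1q macrophages under AngII; points are summed UMIs of a group, and bars, drawn for members, are exact 95% Poisson intervals, hidden where smaller than the symbol. *Klrd1*, *Clec10a* and *Sirpa* separate members from type-1 cells, and *Apoe* and *Csf1r* separate them from macrophages.

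The 19 AngII cells with at least 3 UMIs of *Fscn1* and *Ccr7*, the pattern of migratory dendritic cells, gave the last comparison. Of 2548 genes, 497 (19.5%) were at least 2-fold higher in members and 296 (11.6%) lower. The migratory cells held 251961 UMIs against 616792 in members, so a gene could pass the minimum through members alone, which favours higher calls. All 11 migratory markers outside the choice were lower in members (median log2 ratio -4.09 against 0.19 for all genes), including the chemokine *Ccl22* at 0 CPM. Of 10 costimulatory genes 7 were lower, among them *Cd80*, *Cd86*, *Cd40* and *Cd274*, which encodes PD-L1. *Cd200r1* and *Vsir*, which encode inhibitory receptors, were the 2 that were higher. C-type lectins went the other way, with 10 of 15 higher in members and 1, *Ly75*, lower.

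AngII members were then set beside steady state members. Of 2360 genes with at least 50 UMIs over both, 262 (11.1%) were at least 2-fold higher under AngII and 128 (5.42%) lower, with a median log2 ratio of 0.05. A gene could pass this minimum through AngII alone, whose members held 616792 UMIs against 165985. These counts describe 2 libraries. Of 10 type-2 markers 6 were higher (*Flt3*, *Klrd1*, *Clec10a*, *Cd7*, *Napsa* and *Ltb*) and 1, *Mgl2*, was lower. At steady state *Ltb* had 0 UMIs and *Cd7* 1. These genes reached the minimum through AngII, so the count is not read as a direction. *Flt3* was 2.72-fold (1.37 to 6.14) higher under AngII. A single dividing member held 6 of its 9 steady state UMIs, and without it the steady state level was 21.6 CPM and the ratio 6.83-fold (2.26 to 33.7). The order reversed, to a log2 ratio of -1.57, when all cells were thinned to 1000 UMIs before selection. That setting left 58 AngII and 11 steady state members, and 1.72% of the AngII members kept a *Flt3* UMI. So few UMIs cannot give an order. *Clec10a* stood at 380 CPM (292 to 486) at steady state and 801 CPM (732 to 875) under AngII. Its UMIs per cell ran from 1 over a median of 4.5 to 34 at steady state and from 0 over 11 to 50 in the deep AngII members, so the 2 groups overlapped. *Mgl2* stood at 2133 CPM (1916 to 2367) and 811 CPM (741 to 885). Its UMIs ran from 0 to 175 (median 29.5) in steady state members and from 0 to 177 (median 0) in deep AngII members. *Itgax*, *Sirpa*, *Dpp4*, *Zbtb46* and *Irf4* had ratios between 0.861 and 1.17, each with an interval that spanned 1.

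The genes furthest apart were led by *Ifitm1*, which encodes an interferon-inducible membrane protein. It had 0 UMIs at steady state and 1251 under AngII (2028 CPM), at least 112-fold higher when steady state is set at 3 UMIs over the group. It was seen in 40 of 87 members, and the deep cells held 0 to 193 UMIs with a median of 3. In all other cells of the libraries *Ifitm1* stood at 5.74 and 355 CPM, so the difference was not restricted to members. *Il1b*, the inflammasome-processed cytokine, stood at 36.1 and 1548 CPM (42.8-fold, 19.6 to 117). Steady state members held 0 to 3 *Il1b* UMIs and deep AngII members 0 to 117 with a median of 17. In all other cells it stood at 390 and 1549 CPM.

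Other genes high under AngII had narrower sources. *Cd7*, a T cell and plasmacytoid surface protein, stood at 6.02 and 287 CPM, and at 180 CPM without the cells with *Siglech*. *Ly6a* had 0 UMIs at steady state and 268 CPM under AngII, but 1 cell held 51.5% of those UMIs. *Siglech* itself, at 0 and 188 CPM, came from 4 cells. *Ffar2*, a receptor for short-chain fatty acids, had 0 UMIs and 240 CPM (at least 13.3-fold higher), against 1.72 and 16.1 CPM in all other cells. *Tnfsf9*, which encodes the costimulatory 4-1BB ligand, stood at 6.02 and 208 CPM (34.4-fold, 6.07 to 1371). The wide interval follows from 1 UMI at steady state. *Cxcl16* and *Clec4n*, which encode a chemokine and dectin-2, had 0 UMIs at steady state and were at least 9.87-fold and 8.07-fold higher.

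Groups of genes with a shared role were counted in the same comparison, to be read against the 11.1% of all genes higher and 5.42% lower, and with so few genes per group these shares are coarse. A gene could reach the minimum through its AngII UMIs alone, so none of these counts is read as a direction. Of 12 class II loading genes 4 were higher under AngII and 0 lower (median log2 ratio 0.63). *Ifi30*, the lysosomal thiol reductase, stood at 928 CPM (787 to 1086) and 3209 CPM (3069 to 3353). Its UMIs ran from 0 to 41 (median 22.5) in steady state members and from 2 to 122 (median 56) in deep AngII members. In all other cells *Ifi30* stood at 324 and 1237 CPM, a difference of like direction. *H2-Oa*, a subunit of the class II modulator H2-O, stood at 42.2 and 242 CPM (5.73-fold, 2.71 to 14.5), and *Ciita*, the class II transactivator, at 211 and 423 CPM (2.01-fold, 1.41 to 2.94). *Lgmn*, an endosomal protease, was also past 2-fold.

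Receptors and other groups were counted in the same way. Of 11 growth factor and cytokine receptors 6 were higher and 0 lower (median log2 ratio 0.87): *Flt3*, *Csf2rb*, *Il4ra*, *Il1r2*, *Ifngr1* and *Il7r*. Some of them, such as *Il4ra* and *Il1r2*, reached the minimum mainly through their AngII UMIs, so this count is not read as a direction. *Ifngr1*, the interferon-gamma receptor chain, stood at 277 and 613 CPM (2.21-fold, 1.63 to 3.07), and the decoy receptor *Il1r2* at 18.1 and 148 CPM. Of 17 pattern recognition genes 3 reached the minimum, mainly through their AngII UMIs, so their direction is not counted: *Cd14* stood at 18.1 and 139 CPM, *Myd88* at 30.1 and 172 CPM and *Tmem173* (STING) at 60.2 and 188 CPM. Of 9 class I genes 3 were higher and 0 lower, and of 4 interferon-stimulated genes 2, *Ly6e* and *Bst2*. Of 12 transcription factors 3 were higher (*Irf8*, *Runx3* and *Tcf4*) and 1 lower, *Rbpj*, the DNA-binding effector of Notch, at 578 CPM at steady state and 131 CPM under AngII. *Irf8* stood at 6.02 and 180 CPM, and at 50.3 CPM without the 4 cells with *Siglech*. *Tcf4* stood at 108 and 297 CPM, but at 120 CPM without those cells, 1.11 times (0.651 to 1.98) the steady state level and no longer past 2-fold. Of 11 glycolysis genes 1 was higher and 0 lower, and of 9 chemokine receptor and migration genes 2 were higher and 0 lower. *Ccr2*, the monocyte chemokine receptor, was 1.96-fold (1.68 to 2.28) higher at steady state. Of 13 renin-angiotensin genes only 2 reached the minimum and 0 were past 2-fold.

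**Figure D3:**
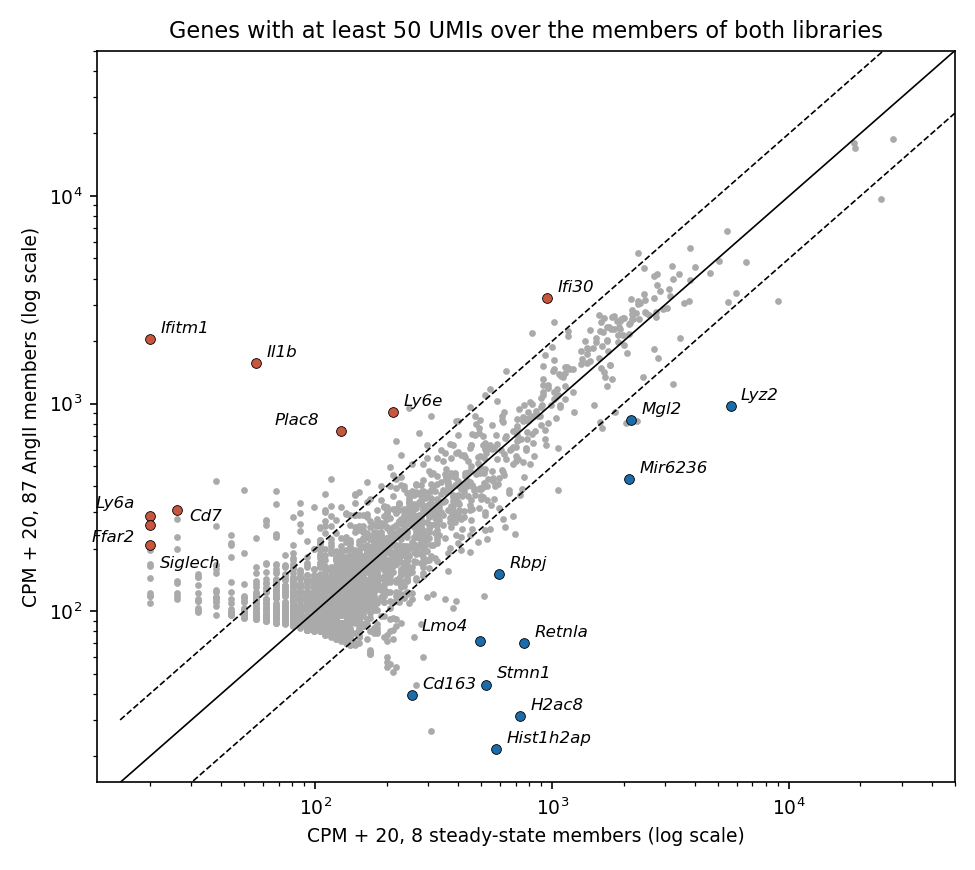
CPM plus 20 of each of 2360 genes in steady state members (x axis, log scale) and AngII members (y axis, log scale), with lines at equality and at 2-fold in either direction; coloured, labelled points mark single genes. *Ifitm1* and *Il1b* lie far above the 2-fold line, and *Lyz2*, *Retnla* and the histone genes below it.

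Single cells carried many of the genes that were higher at steady state. The histone genes *Hist1h2ap* and *H2ac8* stood at 560 and 711 CPM at steady state and 1.62 and 11.3 CPM under AngII. They rested on 1 dividing member with 11 *Mki67*, 25 *Top2a* and 76 *Stmn1* UMIs, without which *Hist1h2ap* had 0 UMIs and *H2ac8* stood at 14.4 CPM. With members with 1 C1q UMI left out the log2 ratios (20 CPM added) were 0.17 and 0.59, but so few UMIs of both genes cannot give an order. The 4 of 6 DNA replication genes past 2-fold (*Stmn1*, *Tuba1b*, *Pcna* and *Hmgb2*) were all higher at steady state. Without the dividing member *Hmgb2* was 1.11-fold and *Tuba1b* 1.60-fold above AngII, within 2-fold, whereas *Stmn1* (2.37-fold, 0.870 to 5.95) and *Pcna* (2.48-fold, 1.34 to 4.48) stayed past it. *Retnla*, which encodes the secreted protein RELM-alpha, stood at 741 and 50.3 CPM, but 121 of its 123 steady state UMIs were in 1 member. Without that cell it stood at 13.0 CPM. The deep AngII members held 0 to 6 *Retnla* UMIs (median 0), so no order is given. *Lyz2*, the lysozyme of myeloid cells, stood at 5639 and 953 CPM. Here 1 member held 434 of its 936 UMIs, and without it the level was 3297 CPM, 3.46-fold above AngII.

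Other genes high at steady state were spread over the members. *Lmo4*, a transcriptional adaptor, stood at 476 and 51.9 CPM (9.17-fold, 6.01 to 14.3), with 2 to 26 UMIs in every steady state member and 0 to 3 in the deep AngII members. *Cd163*, the haemoglobin scavenger receptor, stood at 235 and 19.5 CPM (12.1-fold, 6.20 to 25.3) with 1 to 18 UMIs per steady state cell. The same direction was seen in all other cells, with *Lmo4* at 139 and 81.2 CPM and *Cd163* at 485 and 118 CPM. *Trf*, which encodes transferrin and was seen in 7 of 8 steady state members, stood at 494 and 98.9 CPM in members and 636 and 328 CPM in all other cells. Of 12 monocyte and macrophage genes 5 were higher at steady state (*Lyz2*, *Fcgr3*, *Cd163*, *Ear2* and *Retnla*) and 3 under AngII (*Plac8*, *Apoe* and *Ms4a6c*). *Apoe* stood at 90.4 CPM at steady state and at 121 CPM in the deep AngII members, within 2-fold, so its count rested on the shallow cells. *Plac8*, a gene of classical monocytes, stood at 108 and 717 CPM (6.61-fold, 4.13 to 11.3), with 17 of its 18 steady state UMIs in the member with the most *Lyz2*.

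The deep AngII members varied among themselves, most plainly for *Mgl2*. The split was drawn after the values were seen: 11 cells held at least 5 *Mgl2* UMIs, 4 held 1 to 4, and 14 held 0 and no *Siglech*. *Cd209a*, which every member holds by the choice, is given for reference only, at 2069 CPM with *Mgl2* and 2100 CPM without (ratio 0.985, 0.865 to 1.12). *Clec10a* stood at 921 and 955 CPM. *Clec4b1*, a C-type lectin, was 3.76-fold (2.67 to 5.38) higher in cells with *Mgl2*, with medians of 10 and 2 UMIs per cell. The chemokine *Ccl6* stood at 797 and 303 CPM, but 1 cell held 131 of the 173 UMIs in cells with *Mgl2*, and the medians were 3 and 3.5 UMIs. *Ifitm1* was 3.77-fold (3.13 to 4.57) higher in cells without *Mgl2* (medians 8 and 1 UMIs), and *Klrd1* 1.67-fold (1.15 to 2.44; medians 3 and 1 UMIs). *Plac8* summed to 833 CPM without and 170 CPM with *Mgl2*, but 2 cells held 83 and 74 of the 198 UMIs, and the medians went the other way, at 0.5 and 2 UMIs. *Ear2*, *Ccl17* and *Irf4* were also higher with *Mgl2*, at 557, 332 and 115 CPM against 16.8, 4.21 and 16.8 CPM, but 1 cell held 112 of the *Ear2* UMIs, 68 of those of *Ccl17* and 15 of those of *Irf4*. At steady state 5 of 8 members held at least 5 *Mgl2* UMIs.

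**Figure D4:**
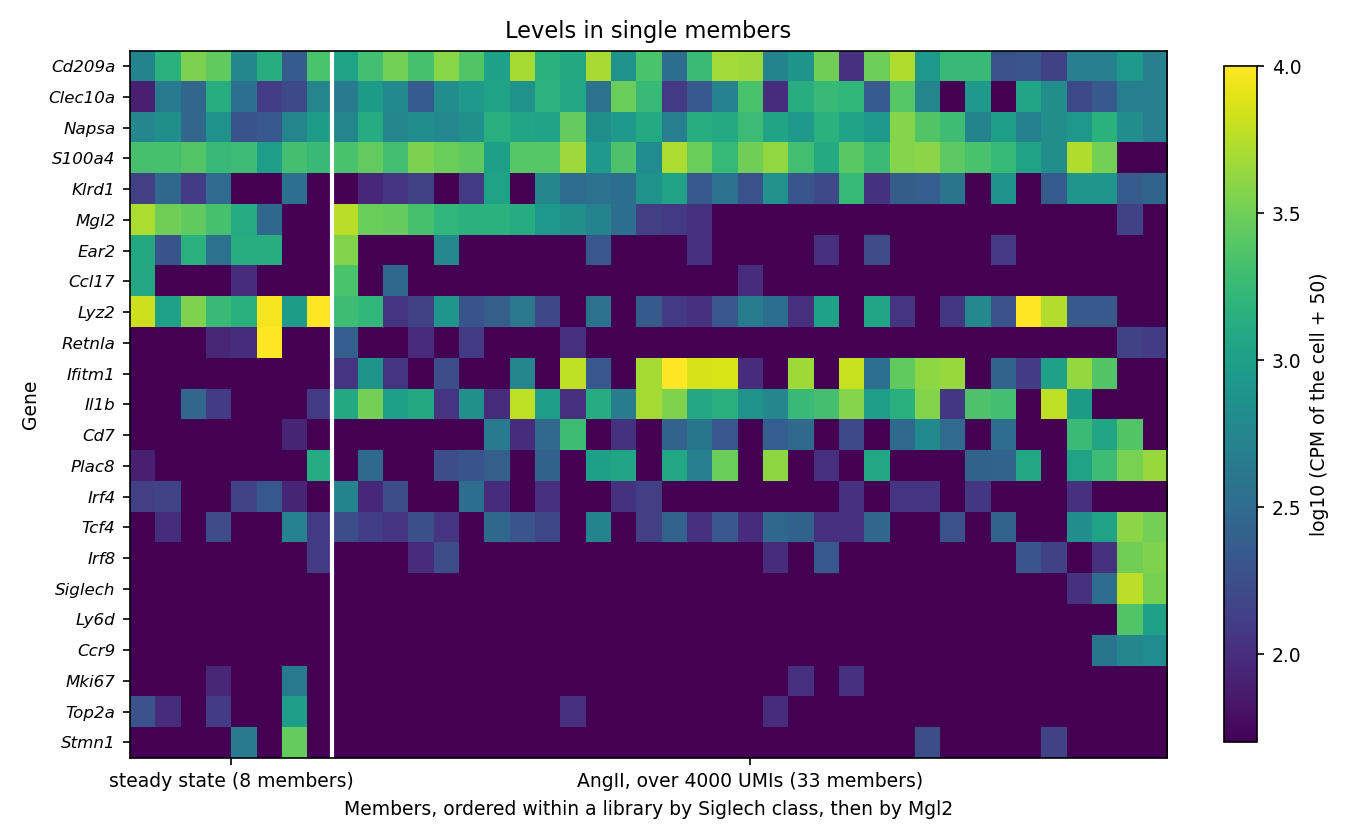
Heat map of log10(CPM + 50) for 23 genes (rows) in the 8 steady state members and the 33 deep AngII members (columns), ordered by *Siglech* and then *Mgl2*. *Cd209a* is present in every column by the choice, whereas *Ifitm1* is at 0 in the 8 steady state cells and the *Siglech* genes are high in 2 columns.

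The 54 shallow AngII members differed from the 33 deep ones in their genes as well as in depth. *Lyz2* stood at 2756 CPM in shallow and 784 CPM in deep cells, *Apoe* at 1491 and 121 CPM, and *Retnla* at 378 and 19.5 CPM. Thinned to 500 UMIs per cell, *Lyz2* was found in 30 of 54 shallow and 2 of 33 deep cells and *Apoe* in 26 of 54 and 3 of 33. *Napsa* stood at 472 CPM in shallow and 1135 CPM in deep cells, and was found in 9 of 54 and 12 of 33 thinned cells. *Klrd1* stood at 151 and 333 CPM but was found in 4 of 54 and 3 of 33 thinned cells, which are similar shares of few cells. *Clec10a* stood at 472 and 832 CPM but was found in 15 of 54 and 8 of 33 thinned cells, so its 2 measures did not give the same order. *Lyz2* and *Apoe* are also abundant in the C1q macrophages of this library, at 11171 and 14044 CPM. The share of free macrophage RNA and of misassigned macrophages among shallow members was not tested.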

How the data were processed

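Sample reads were separated with Je by the authors and aligned with Cell Ranger 3.1.0 to GRCm38.p6 (both per the submitters' processing notes), using GENCODE M24 extended by the eYFP sequence. The deposited values are raw UMI counts per gene and called cell barcode. Barcodes with fewer than 300 or more than 6500 genes, or with over 5% mitochondrial UMIs, were left out, leaving 306 of 346 and 4198 of 4419 with 3647973 and 18008885 UMIs. Rows that share a symbol were added (55386 features, 55277 symbols). Doublets were not called and stayed in.

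UMIs were summed over the cells of a group and divided by their total (CPM). Exact Poisson and Clopper-Pearson intervals, at 95%, and exact conditional intervals of ratios cover counting error only. Genes outside the choice with at least 50 UMIs over both groups were counted at 2-fold. A gene could pass this minimum through 1 group alone, more easily the group with more UMIs. Thinning drew a fixed number of UMIs per cell without replacement. Ratios with 20 CPM added ranked the genes named: the 12 highest and 12 lowest per comparison, the 12 leading genes of members in each library, and list members with at least 20 UMIs. Scripts ran under Python 3.11.15 (NumPy 2.4.6, SciPy 1.17.1), with pandas 2.3.3 for tables and Matplotlib 3.10.9 for figures, and were tested on simulated data. Coordinates are from the GENCODE annotation of GRCm38. The members and lists were chosen with earlier results of these data known.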

Additional observations from a re-analysis of the deposited data

How the results depend on the processing

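With 1 library per condition no replicate could be left out, and no paired analysis was possible because each condition is 1 library. The share of AngII barcodes that were members was 1.21% with at least 2 *Cd209a* UMIs, 1.62% with at least 30 class II UMIs, 1.26% with no C1q UMI, and 0.786% with members of at least 4000 UMIs. The share of AngII members with a *Flt3* UMI was 51.0% with at least 2 *Cd209a* UMIs, 77.1% with at least 1000 genes and 75.8% at 4000 UMIs. It was 1.72% when cells were thinned to 1000 UMIs before selection and 17.1% when members were thinned to 2000. The separate random draw at 2000 UMIs used for the deep cells above gave 28.6% of 35 members. For *Klrd1* the share of AngII members was 54.9%, 80% and 84.8% under the first 3 settings and 15.5% on thinning to 1000, where the steady state share was 0%. *Yfp* in AngII members was 0% on thinning to 1000, to 2000, or when called at 2 UMIs.

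Genes past 2-fold higher under AngII numbered 18 on thinning to 1000, 27 to 2000, 172 with no C1q UMI, 684 at a minimum of 20 UMIs per gene and 42 at 200. Genes past 2-fold lower numbered 9, 16, 422 and 19 on thinning to 1000, to 2000, and at minimums of 20 and 200, and 52 without the cell richest in each gene. Against type-1 cells the higher genes numbered 21, 38, 761 and 97, and the lower genes 5, 30, 671 and 72, under the same 4 settings, with 203 lower with no C1q UMI. Thinning leaves fewer UMIs and so fewer genes that reach the minimum. Of the log2 ratios of AngII over steady state, *Flt3* reversed on thinning to 1000 (-1.57), where too few *Flt3* UMIs remained to give an order. With no C1q UMI, *H1f5* (0.17), *Hist1h2ap* (0.17), *H2ac8* (0.59) and *Retnla* (1.21) reversed, and *Retnla* also without its richest cell (0.93). The histone genes held so few UMIs under AngII that their signs give no order, and *Retnla* under AngII was higher in shallow than in deep members. The settings at 4000 UMIs, without the members with *Siglech* and without the richest cell were chosen after seeing the data. Of the 36 gene ratios followed, none reversed under the other settings, including without *Siglech*, where 29 stayed inside their intervals. Ratios past 2-fold (20 CPM added) that came within it numbered 6 without the richest cell, 4 with no C1q UMI, 4 on thinning to 1000, 3 without the deepest member, 3 with the mean of per-cell CPM, 2 on thinning to 2000, 2 without *Siglech*, and at most 1 under each other setting. The mean of per-cell CPM moved 21 of them beyond their intervals, the most of the settings without thinning. Depth limits shares of cells with a UMI most, since 54 AngII members lie under 4000 UMIs.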
